A study of Mus musculus with 15 samples.

Results

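Liver mRNA of male C57BL/6J mice (genotype labelled WT) was compared between 5 libraries from mice fed a ketogenic diet with 89.9% fat and 4 libraries from mice fed a low-fat control diet with 10% fat. All samples carry the label ALF beside the diet, which the sources used here do not explain. Feeding began at 15 weeks of age and lasted 9 months, and livers were snap frozen at sacrifice. The 9 libraries were taken by their diet labels out of 15 in the series. The remaining control library, replicate 1, was left out because the submitters describe it as contaminated. A further 5 livers, from a 60% fat diet, served to show where the ketogenic livers differed from another fat-rich diet. They also shared the fit, so they entered the filter, the scaling and the estimate of spread behind the p-values against control. Poly(A) mRNA was sequenced, and 14627 of the 56980 gene identifiers in the count table had enough counts to be tested. All 3 diets share strain, sex, genotype, starting age and duration. The labels do not say that replicates are separate mice, so the p-values may reflect only technical spread among libraries.

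On a ketogenic diet fat supplies nearly all fuel and carbohydrate is scarce. Hepatocytes break fatty acids down to acetyl-CoA in mitochondria and peroxisomes and turn part of it into the ketone bodies acetoacetate and beta-hydroxybutyrate, which other tissues burn. The fatty-acid-sensing nuclear receptor PPAR-alpha drives many genes of these steps in liver, whereas insulin and sugar, through SREBP-1c and ChREBP, drive the genes that make new fatty acids from acetyl-CoA.

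Across all genes tested, 1093 rose (7.47%) and 673 fell (4.6%) in the ketogenic livers at a Benjamini-Hochberg adjusted p under 0.05 from the quasi-likelihood test of edgeR, which is the threshold used throughout. These shares are the background for the counts of each gene list below. A level is given in CPM, the counts of a gene scaled to a common library total, after scaling by TMM (trimmed mean of M-values). The rises were larger than the falls, with a median log2 fold change of 1.03 among genes that rose and -0.68 among those that fell, against 0.03 over all genes tested. At least 4-fold changes numbered 194 rises and 66 falls. The CPM values of both groups did not overlap for 1835 genes (12.5%; 7.38% higher and 5.17% lower in ketogenic), of which 1347 also passed the test. Calls were more frequent among abundant mRNAs: 7.11% of genes under a mean of 1 CPM and 24.2% of those over 1000 CPM passed. When library totals replaced TMM factors the median of all genes shifted from 0.03 to 0.21 and the calls became 1826 rises and 368 falls, so 83.2% of calls were rises instead of 61.9%. Of the genes named below as not passing, Abcd3, Cat, Echs1, Fabp1, Mdh2, Pnpla2 and Sdha were called higher on library totals and under no other alternative. Changes below are relative to the TMM scale. A fit of only the control and ketogenic libraries, without the high-fat livers, gave 785 rises and 483 falls. Leaving out control replicate 3, 4 or 5 lowered the counts to 724 rises and 432 falls, 658 and 398, and 704 and 420. Library numbers fall on both sides of a gap, and among the libraries numbered above 10 alone (3 control and 3 ketogenic) 478 genes rose and 317 fell.

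**Figure D1:**
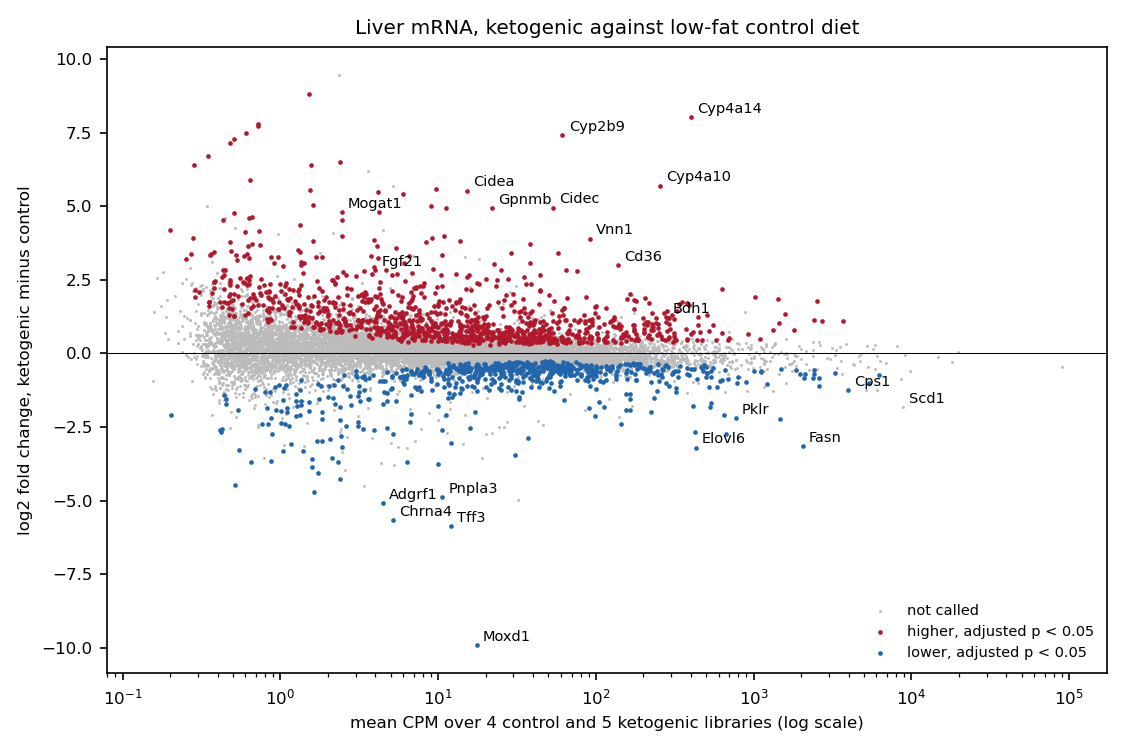
Log2 fold change of ketogenic minus control (vertical) against the mean CPM over the 9 libraries (horizontal, log scale), 1 point per gene. Red points rose and blue points fell at an edgeR adjusted p under 0.05. Cyp4a14 and Cyp2b9 lie near the top, and Fasn and Elovl6 are abundant mRNAs well below 0. Scd1 is grey.

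Library totals over the 9 livers ran from 18429827 to 22509625 counts. Along the first principal component of the 1000 most variable genes (47% of variance), the controls lay between -37.9 and -27.5 and the ketogenic livers between 18.6 and 38.4. Of the hepatocyte markers, such as albumin, 0 rose and 3 of 13 fell: Cps1, Ahsg and Fgb, and 5 fell without ketogenic replicate 3. The Ahsg call was lost without control replicate 3, 4 or 5 or ketogenic replicate 1 (edgeR adjusted p up to 0.0806), and the Fgb call without control replicate 4 (0.0711). Per-library medians of these markers were -0.67, -0.29, -0.31, -0.32 and -0.95 in ketogenic replicates 1 to 5, in log2 units relative to the control mean, so replicates 1 and 5 were lowest. A pair of libraries stood apart from their groups. Control replicate 2 held digestive-tissue and neutrophil transcripts: acinar genes took 0.213% of its counts (exact 95% interval 0.211 to 0.215%) against at most 0.0195% in the other controls and 0.0454% in the ketogenic libraries, and the neutrophil gene S100a9 stood at 47.2 CPM against 1.73, 1.02 and 0.628. Ketogenic replicate 5 differed in lipid synthesis, cholesterol and immune genes, as described with each group below. Leaving out ketogenic replicate 5 gave 1043 rises and 723 falls, and 1476 genes (83.6% of either set) were called both with and without it. In bulk RNA, fewer cells of a type and less RNA per cell cannot be told apart.

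Genes of ketone body production rose together. Of the 9 genes in the list of ketone synthesis and export, 6 rose and 0 fell, with a median log2 fold change of 0.96 against 0.03 over all genes, where 7.47% rose. In the high-fat livers 6 of the 9 also rose against the same controls, with a median of 0.79. Per-library values are given below in the order control replicates 2 to 5, then ketogenic replicates 1 to 5. Bdh1, which interconverts acetoacetate and beta-hydroxybutyrate, stood at 136, 191, 145 and 159 CPM in the controls and 441, 452, 394, 371 and 215 CPM in the ketogenic livers. Bdh1 had a log2 fold change of 1.25 (SE 0.18, edgeR adjusted p = 0.000384). Acat1, the mitochondrial acetoacetyl-CoA thiolase, stood at 293, 269, 244 and 313 CPM in the controls and 637, 778, 815, 785 and 452 CPM in the ketogenic livers. Acat1 had a log2 fold change of 1.31 (SE 0.16, edgeR adjusted p = 0.000127). Neither gene's groups overlapped, and replicate 5 was the lowest ketogenic liver for both.

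Slc16a7, the monocarboxylate transporter MCT2, rose as well (log2 fold change 0.96, SE 0.21, edgeR adjusted p = 0.00725). So did Fgf21, a fasting-induced hormone placed in the list as a companion of ketogenesis (log2 fold change 2.82, SE 0.37, edgeR adjusted p = 0.000168). Slc16a1 (log2 0.48, edgeR adjusted p = 0.151), Slc16a6 (log2 0.40, edgeR adjusted p = 0.238) and the deacetylase gene Sirt3 (log2 0.11, edgeR adjusted p = 0.672) did not pass. Among 4 genes of ketone body use, Aacs, the cytosolic enzyme that activates acetoacetate for lipid synthesis, fell (log2 fold change -1.92, SE 0.24, edgeR adjusted p = 0.000127). Oxct1, the enzyme that peripheral tissues use to burn ketones, had a log2 fold change of 0.14 (edgeR adjusted p = 0.836), or -0.47 without ketogenic replicate 5 (edgeR adjusted p = 0.114).

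Most genes of mitochondrial fatty acid oxidation rose. Of 28 genes of the carnitine shuttle and mitochondrial beta-oxidation, 21 rose and 0 fell, with a median log2 fold change of 0.94. Carnitine import led the group: Slc22a5, the carnitine transporter OCTN2, stood at 12.2, 13.4, 11.8 and 16.1 CPM in the controls and 50.9, 48.1, 38, 40.4 and 29.8 CPM in the ketogenic livers. Slc22a5 had a log2 fold change of 1.63 (SE 0.15, edgeR adjusted p = 1.75e-05). The shuttle genes Cpt1a, the outer-membrane carnitine palmitoyltransferase (log2 fold change 0.77, SE 0.19, edgeR adjusted p = 0.0137), Slc25a20, the carnitine-acylcarnitine carrier (log2 fold change 1.15, SE 0.14, edgeR adjusted p = 9.47e-05), Cpt2 (log2 0.67, edgeR adjusted p = 0.0077) and Crat, carnitine acetyltransferase (log2 fold change 1.54, SE 0.16, edgeR adjusted p = 2.7e-05), all rose. Cpt1a had its 4 control values at 237, 462, 374 and 428 CPM and its 5 ketogenic values at 790.3, 676, 594, 641 and 500.5 CPM, so the groups were separated by a narrow gap.

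Within the matrix, the chain-length-specific dehydrogenases differed in size of change. Acadm, the medium-chain enzyme, stood at 251, 256, 220.1 and 287 CPM in the controls and 605, 702, 681, 609 and 365 CPM in the ketogenic livers (log2 fold change 1.22, SE 0.17, edgeR adjusted p = 0.000271), and replicate 5 was the lowest of the ketogenic livers. Acadl (log2 0.85, edgeR adjusted p = 0.00111) and Acads (log2 0.74, edgeR adjusted p = 0.00789) rose less, and the very-long-chain gene Acadvl did not pass (log2 0.38, edgeR adjusted p = 0.159), although it passed when ketogenic replicate 5 was left out (log2 0.49, edgeR adjusted p = 0.0201; all alternatives gave 0.011 to 0.326). The trifunctional protein subunits Hadha (log2 0.68, edgeR adjusted p = 0.00331) and Hadhb (log2 0.99, edgeR adjusted p = 0.000339), the auxiliary enzymes Eci1 (log2 1.25, edgeR adjusted p = 0.000278) and Decr1 (log2 1.06, edgeR adjusted p = 0.00021) needed for unsaturated chains, and Etfdh, which passes the electrons to ubiquinone (log2 fold change 1.02, SE 0.12, edgeR adjusted p = 9.67e-05), rose. The uncoupling protein gene Ucp2 rose too (log2 fold change 1.46, SE 0.18, edgeR adjusted p = 0.000127). Echs1 (log2 0.24, edgeR adjusted p = 0.329), Acaa2 (log2 0.15, edgeR adjusted p = 0.655) and Mlycd (log2 0.13, edgeR adjusted p = 0.486) did not pass.

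Respiratory chain genes gave another result. Of 46 nuclear-encoded OXPHOS subunits 0 rose and 0 fell by edgeR (4 at an unadjusted p under 0.05, and 0 by DESeq2 and limma-voom), with a median log2 fold change of 0.015, and of 13 mitochondrially encoded mRNAs 1, mt-Nd4l, fell (log2 fold change -0.81, SE 0.21, edgeR adjusted p = 0.0206). On library totals 5 of the 46 rose, and 2 fell without ketogenic replicate 3. The mt-Nd4l call was lost without control replicate 4 (edgeR adjusted p = 0.0763) or 5 (0.074), and all alternatives gave 0.00289 to 0.14. Per-library medians of the nuclear subunits were -0.50, 0.09, 0.43, 0.09 and -0.32 in ketogenic replicates 1 to 5, on the log2 scale relative to the control mean, so replicates 1 and 5 lay lowest and replicate 3 highest.

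Peroxisomes shorten very long and branched chains before mitochondria complete the work, and their genes followed the mitochondrial ones. Of 25 tested genes of 26 in the list, 17 rose and 0 fell (median 0.97). The enzymes Ehhadh (log2 fold change 1.15, SE 0.19, edgeR adjusted p = 0.000835) and Hsd17b4 (log2 fold change 0.97, SE 0.12, edgeR adjusted p = 0.000127) and the thiolases Acaa1a (log2 1.19, edgeR adjusted p = 0.00103) and Acaa1b (log2 1.87, edgeR adjusted p = 2.1e-05) all rose. Acaa1a and Acaa1b are close paralogs, and the treatment of reads matching both is not stated.

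Pex11a, a membrane protein of peroxisome proliferation, stood at 56.3, 58.9, 55.0 and 77.5 CPM in the controls and 263, 251, 291, 276 and 161 CPM in the ketogenic livers. Pex11a had a log2 fold change of 2.0 (SE 0.18, edgeR adjusted p = 1.15e-05). Crot, which makes carnitine esters of shortened chains for export to mitochondria, rose (log2 fold change 1.75, SE 0.21, edgeR adjusted p = 9.33e-05), as did the very-long-chain acyl-CoA importer Abcd2 (log2 fold change 1.80, SE 0.31, edgeR adjusted p = 0.00159). Acot2, Acot3, Acot4 and Acot6, thioesterases that free acyl chains from CoA inside organelles, rose by 3.84, 2.38, 1.17 and 2.31 on the log2 scale with edgeR adjusted p from 0.000115 to 0.00306. These paralogs are tandem copies and their shared reads could be split by the counting. The importer Abcd3 (log2 0.20, edgeR adjusted p = 0.308), catalase (Cat, log2 0.29, edgeR adjusted p = 0.252) and the alpha-oxidation gene Phyh (log2 0.25, edgeR adjusted p = 0.468) did not pass.

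Some of the largest rises lay in microsomal omega-oxidation, which hydroxylates the far end of a fatty acid. Cyp4a14 stood at 2.49, 2.24, 0.871 and 5.37 CPM in the controls and 1006, 1194, 597, 579 and 195 CPM in the ketogenic livers. Cyp4a14 had a log2 fold change of 8.03 (SE 0.93, edgeR adjusted p = 0.000171). Cyp4a10 stood at 7.30, 4.68, 2.20 and 20.8 CPM in the controls and 539.9, 707, 376, 329 and 316 CPM in the ketogenic livers (log2 fold change 5.70, SE 0.65, edgeR adjusted p = 0.000132), and its log2 fold change was 6.58 without control replicate 5, its highest control. For both genes every ketogenic library was more than an order of magnitude above every control. Cyp4a31 (log2 3.60, edgeR adjusted p = 5.6e-05) and Cyp4a32 (log2 1.74, edgeR adjusted p = 4.33e-05) also rose, and the 4 genes share near-identical exons, so the split of reads among them is uncertain. Aldh3a2, the dehydrogenase that oxidises the resulting fatty aldehydes, stood at 169, 238, 151 and 284 CPM in the controls and 1187, 933, 889.7, 950.2 and 857 CPM in the ketogenic livers. Aldh3a2 had a log2 fold change of 2.19 (SE 0.19, edgeR adjusted p = 1.15e-05). In all, 6 of 14 tested genes rose and 1 fell: Cyp4f14 (log2 fold change -0.92, SE 0.23, edgeR adjusted p = 0.0158), a member of the Cyp4f family, whose member Cyp4f17 rose (log2 1.38, edgeR adjusted p = 0.00107). Cyp4a12a (log2 0.95, edgeR adjusted p = 0.218) and Cyp4a12b (log2 1.04, edgeR adjusted p = 0.331), which are androgen-dependent in mice, did not pass.

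Other PPAR-alpha targets moved with the oxidation genes: 28 of 34 rose and 0 fell, with a median log2 fold change of 1.61. This list shares some genes with those on lipid droplets and oxidation. Vnn1, a pantetheinase, stood at 6.22, 12.6, 6.66 and 16.5 CPM in the controls and 214, 186, 136, 144 and 104 CPM in the ketogenic livers. Vnn1 had a log2 fold change of 3.90 (SE 0.31, edgeR adjusted p = 6.02e-06). Retsat, retinol saturase (log2 fold change 1.70, SE 0.23, edgeR adjusted p = 0.000236), the mitochondrial CoA carrier Slc25a42 (log2 fold change 1.12, SE 0.16, edgeR adjusted p = 0.00027), the small GTPase gene Rab30 (log2 fold change 2.28, SE 0.25, edgeR adjusted p = 4.48e-05) and Angptl4, a secreted inhibitor of lipoprotein lipase (log2 fold change 1.59, SE 0.29, edgeR adjusted p = 0.0026), rose. The receptor's own mRNA, Ppara (log2 fold change 0.27, SE 0.27, edgeR adjusted p = 0.533), and its coactivator Ppargc1a (log2 -0.31, edgeR adjusted p = 0.49) did not pass. Pdk4, a kinase that shuts pyruvate dehydrogenase, rose (log2 fold change 1.49, SE 0.45, edgeR adjusted p = 0.0444) but lost its call in every leave-one-out fit except those without control replicate 2 or ketogenic replicate 3 (edgeR adjusted p 0.0211 to 0.122).

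Promoter sequences of oxidation and synthesis genes are shown because these groups moved in opposite directions and PPAR-alpha is known to bind repeats of AGGTCA. RefSeq promoters (GRCm38.p6, 250 bases before to 50 after the start site) matched 10721 tested genes by symbol, 781 of those that rose and 513 of those that fell. Each window below holds AGGTCA, on either strand, once, in capitals. Cpt1a (chr19:3323051-3323350, plus strand) and Plin2 (chr4:86670010-86670309, minus strand) rose, and Acly (chr11:100527951-100528250, minus strand) and Elovl6 (chr3:129532136-129532435, plus strand) fell.
Cpt1a: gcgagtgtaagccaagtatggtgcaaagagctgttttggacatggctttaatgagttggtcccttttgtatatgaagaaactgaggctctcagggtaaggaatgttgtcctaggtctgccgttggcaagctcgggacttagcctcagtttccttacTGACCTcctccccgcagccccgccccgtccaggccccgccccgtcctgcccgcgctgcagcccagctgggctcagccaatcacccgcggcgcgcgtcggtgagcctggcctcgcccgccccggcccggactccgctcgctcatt
Plin2: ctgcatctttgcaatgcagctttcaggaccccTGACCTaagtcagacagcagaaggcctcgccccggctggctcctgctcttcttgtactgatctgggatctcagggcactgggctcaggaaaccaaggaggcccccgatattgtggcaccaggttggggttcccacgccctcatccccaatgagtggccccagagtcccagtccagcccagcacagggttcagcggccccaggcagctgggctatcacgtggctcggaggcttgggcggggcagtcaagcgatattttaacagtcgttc
Acly: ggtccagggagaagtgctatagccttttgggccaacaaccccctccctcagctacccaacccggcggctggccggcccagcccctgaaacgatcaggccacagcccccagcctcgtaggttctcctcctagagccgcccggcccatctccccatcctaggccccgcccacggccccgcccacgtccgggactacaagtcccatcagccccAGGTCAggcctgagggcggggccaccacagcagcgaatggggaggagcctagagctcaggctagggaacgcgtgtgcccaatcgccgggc
Elovl6: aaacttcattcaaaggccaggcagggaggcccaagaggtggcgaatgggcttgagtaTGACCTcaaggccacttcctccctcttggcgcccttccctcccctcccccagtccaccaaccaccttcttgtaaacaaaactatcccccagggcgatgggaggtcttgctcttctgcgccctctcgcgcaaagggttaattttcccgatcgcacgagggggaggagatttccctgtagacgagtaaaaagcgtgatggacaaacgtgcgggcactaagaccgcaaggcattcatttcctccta
The letters lay 94 bases before the start site in Cpt1a, 218 in Plin2, 40 in Acly and 193 in Elovl6. AGGTCA occurred in 15.7% of tested promoters, in 18.7% of those of genes that rose and in 18.1% of those that fell. A direct repeat of AGGTCA with a single base between the copies, which contains those letters, was in 0.056% of tested promoters and in 0 of either set. CACGTG, the E-box, was in 11.5%, 11.7% and 11.9%, and TCACCCCAC, a sterol-response element, in 0.746%, 0.64% and 2.14% respectively. TGACNNNGC, the core of the NRF2 element, was in 16.7%, 17.7% and 16.6%. These matches are a description of letters in a short window.

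Of 37 tested genes of lipid droplets and triglyceride turnover, 13 rose and 7 fell. Cidec, which fuses droplets into larger ones, stood at 2.26, 5.24, 1.84 and 2.63 CPM in the controls and 98.8, 84.9, 95.6, 86.8 and 101 CPM in the ketogenic livers (log2 fold change 4.96, SE 0.41, edgeR adjusted p = 1.15e-05), and the ketogenic livers were close to each other. Cidea, a relative that is low in lean liver and high in brown fat, stood at 0.396, 0.967, 0.102 and 0.856 CPM in the controls and 10.4, 23.7, 39.2, 43.5 and 18.6 CPM in the ketogenic livers. Cidea had a log2 fold change of 5.53 (SE 0.77, edgeR adjusted p = 0.000578). Both were near silent in controls. The coat proteins Plin2 (log2 fold change 1.63, SE 0.21, edgeR adjusted p = 0.00017) and Plin4 (log2 fold change 3.42, SE 0.40, edgeR adjusted p = 0.000127) rose with the droplet-forming Fitm1 (log2 1.98, edgeR adjusted p = 0.000353) and Fitm2 (log2 1.06, edgeR adjusted p = 6.09e-05), whereas Plin3 (log2 0.29, edgeR adjusted p = 0.235) and Plin5 (log2 0.40, edgeR adjusted p = 0.21) did not pass. Of 9 adipocyte markers tested, 4 rose, Cidea among them; the hormone-sensitive lipase gene Lipe (log2 0.69, edgeR adjusted p = 0.00958) is another, and Plin1, a defining fat-cell coat protein, did not pass (log2 -1.21, edgeR adjusted p = 0.301). The part of fat cells in these values was not tested.

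Enzymes that build triglyceride changed in both directions. Mogat1, the monoacylglycerol route's acyltransferase, stood at 0.113, 0.102, 0.205 and 0.171 CPM in the controls and 3.99, 3.77, 5.16, 3.72 and 4.83 CPM in the ketogenic livers. Mogat1 had a log2 fold change of 4.80 (SE 0.39, edgeR adjusted p = 6.02e-06). Gpat3, a microsomal glycerol-phosphate acyltransferase, stood at 2.32, 0.560, 0.871 and 1.03 CPM in the controls and 24.8, 15.9, 19.7, 17.7 and 15.8 CPM in the ketogenic livers. Gpat3 had a log2 fold change of 3.98 (SE 0.31, edgeR adjusted p = 6.02e-06). Both were separated from controls in every library. In contrast Gpam, the mitochondrial isoform (log2 fold change -1.31, SE 0.22, edgeR adjusted p = 0.00127), Gpat4 (log2 -0.65, edgeR adjusted p = 0.00759) and Dgat2, which adds the last chain (log2 fold change -0.81, SE 0.17, edgeR adjusted p = 0.00505), fell. Lpin1, a phosphatidate phosphatase, fell (log2 fold change -2.68, SE 0.59, edgeR adjusted p = 0.0103) with 124, 747, 839 and 1506 CPM in the controls and 125, 165, 207, 82.5 and 47.8 CPM in the ketogenic livers; control replicate 2 sat among the ketogenic livers. Pnpla3, an SREBP-1c-driven lipase-like gene, fell (log2 fold change -4.87, SE 1.02, edgeR adjusted p = 0.0089), from 29.4, 8.40, 26.1 and 27.5 CPM to 0.0849, 0, 0.204, 0 and 3.30 CPM, and its log2 fold change was -8.24 without ketogenic replicate 5. Dgat1 (log2 -0.18, edgeR adjusted p = 0.368) and the main triglyceride lipase Pnpla2 (log2 0.41, edgeR adjusted p = 0.129) did not pass.

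Uptake genes divided too, with 5 of 19 higher and 3 lower. Cd36, the fatty acid translocase, stood at 24.8, 28.2, 22.5 and 38.5 CPM in the controls and 289, 231, 160.5, 149 and 301 CPM in the ketogenic livers. Cd36 had a log2 fold change of 2.99 (SE 0.29, edgeR adjusted p = 2.1e-05). Slc27a1, a fatty acid transport protein typical of muscle and fat, rose (log2 fold change 1.76, SE 0.21, edgeR adjusted p = 9.83e-05), as did the intestinal-type binding protein Fabp2 (log2 fold change 1.62, SE 0.23, edgeR adjusted p = 0.000329) and the activating ligase Acsl1 (log2 fold change 1.05, SE 0.17, edgeR adjusted p = 0.000755). Fabp5, the epidermal-type binding protein, fell from 112, 73.7, 36.7 and 64.6 CPM to 5.69, 8.84, 7.30, 9.23 and 17.9 CPM (log2 fold change -2.87, SE 0.36, edgeR adjusted p = 0.000175). Fabp1, the main liver form, did not pass (log2 0.39, edgeR adjusted p = 0.223), nor did the lipoprotein receptor gene Vldlr (log2 1.22, edgeR adjusted p = 0.0848).

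**Figure D2:**
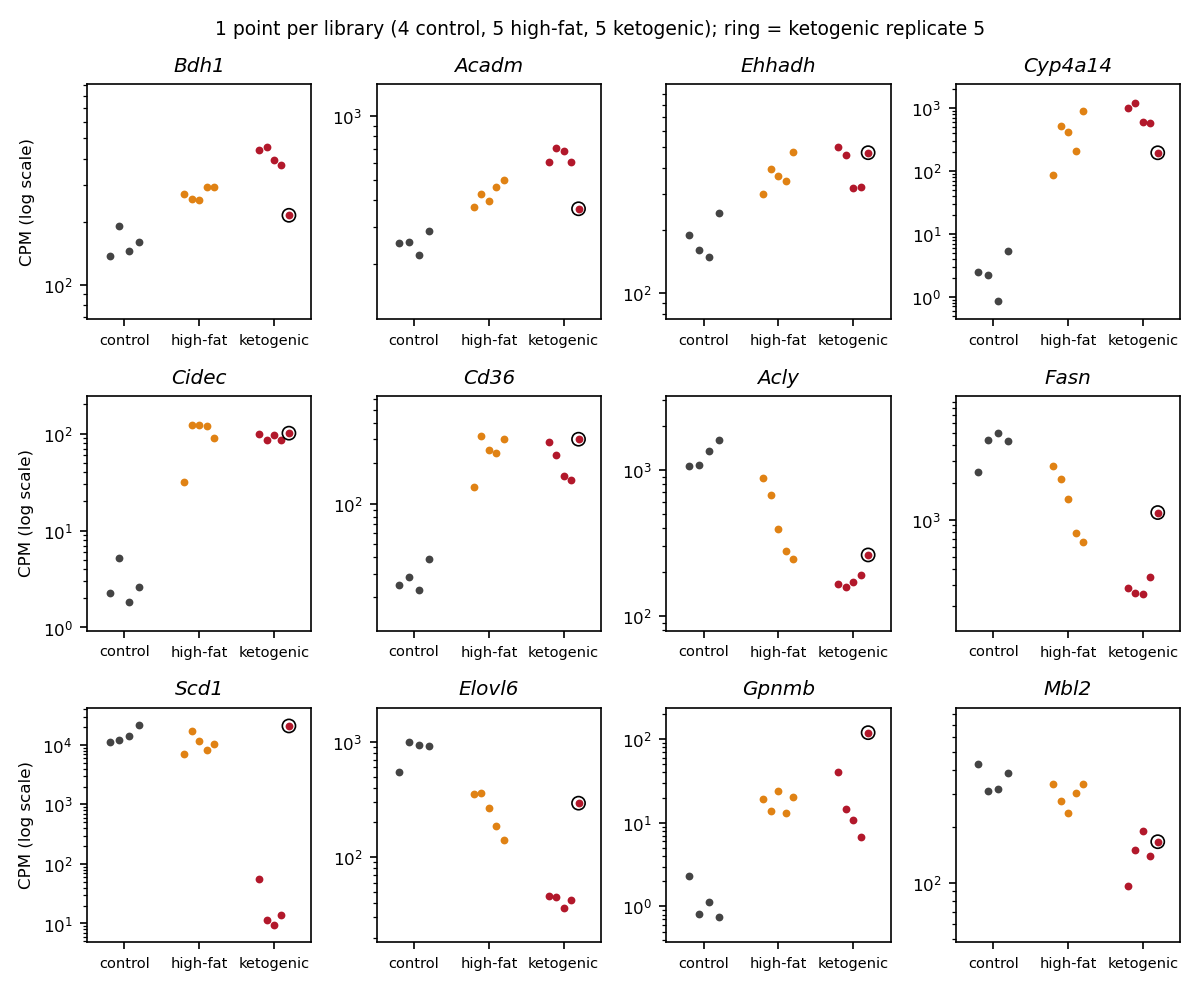
CPM per library (log scale, 1 panel per gene) in 4 control, 5 high-fat and 5 ketogenic livers, 1 point per library; the ring marks ketogenic replicate 5. Oxidation and droplet genes lie above the controls in all 5 ketogenic livers, and Scd1 is below every control in 4 of them and within the control range in the ringed one.

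Most genes of fatty acid synthesis fell. Of 28 genes of de novo lipogenesis, 19 fell and 1 rose, with a median log2 fold change of -1.45, beside 4.6% of all genes that fell. Acly, which cuts citrate to cytosolic acetyl-CoA, stood at 1066, 1085, 1343 and 1598 CPM in the controls and 166, 158, 172, 190.2 and 262 CPM in the ketogenic livers. Acly had a log2 fold change of -2.75 (SE 0.33, edgeR adjusted p = 0.000111). Fasn, fatty acid synthase, stood at 2425, 4393, 4999.7 and 4309.6 CPM in the controls and 281, 254, 253, 343 and 1144 CPM in the ketogenic livers. Fasn had a log2 fold change of -3.15 (SE 0.54, edgeR adjusted p = 0.00176). Elovl6, which extends palmitate, stood at 550.5, 994, 935 and 919 CPM in the controls and 46.0, 45.1, 36.3, 42.2 and 294 CPM in the ketogenic livers. Elovl6 had a log2 fold change of -3.19 (SE 0.62, edgeR adjusted p = 0.00529). Ketogenic replicate 5 was the highest of the ketogenic livers for all 3 genes, and without it the log2 fold changes were -2.91, -3.85 and -4.34. Acaca (log2 -1.99, edgeR adjusted p = 0.00589) and Acacb (log2 -2.41, edgeR adjusted p = 0.000627), the acetyl-CoA carboxylases, fell, as did malic enzyme Me1 (log2 -1.51, edgeR adjusted p = 0.000267) and acetyl-CoA synthetase Acss2 (log2 -1.39, edgeR adjusted p = 0.00304), which supply reducing power and acetyl units.

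Scd1, the stearoyl-CoA desaturase that makes oleate and palmitoleate, showed the widest split within the diet. It stood at 11198, 12171, 13987 and 21253 CPM in the controls and 56.2, 11.3, 9.60, 14 and 20821 CPM in the ketogenic livers. In ketogenic replicates 1 to 4 it was below 60 CPM, far under every control, while replicate 5 lay just under the highest control. With all 9 libraries it did not pass (log2 fold change -1.81, SE 1.85, edgeR adjusted p = 0.558). Without replicate 5 its log2 fold change was -9.35 with an edgeR adjusted p of 5.45e-06; over all alternatives the adjusted p ran from 5.45e-06 to 0.76. Scd2, the form typical of brain and of growing tissue, showed a smaller split (log2 -0.26, edgeR adjusted p = 0.796, and log2 -1.26, edgeR adjusted p = 0.00681, without that library; range 0.00312 to 0.984).

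Several regulators of lipogenesis also fell. Srebf1, encoding SREBP-1, stood at 721, 1296, 1367 and 1147 CPM in the controls and 226, 188, 264, 239.8 and 409 CPM in the ketogenic livers (log2 fold change -2.09, SE 0.31, edgeR adjusted p = 0.00052), and the lipogenic regulators Thrsp (log2 fold change -2.23, SE 0.38, edgeR adjusted p = 0.0015) and Mid1ip1 (log2 fold change -1.84, SE 0.26, edgeR adjusted p = 0.000388) fell. Mlxipl, encoding ChREBP, did not pass with all libraries (log2 -0.41, edgeR adjusted p = 0.192) but fell without ketogenic replicate 5 (log2 -0.64, edgeR adjusted p = 0.0138; all alternatives 0.0138 to 0.61). Pklr, liver pyruvate kinase and a classic ChREBP target, fell, with 1049.9, 1562, 1307 and 1508 CPM in the controls and 210.1, 261, 304, 315 and 390.4 CPM in the ketogenic livers. Pklr had a log2 fold change of -2.20 (SE 0.18, edgeR adjusted p = 6.02e-06). Insig1 and Insig2, both of which hold SREBP in the endoplasmic reticulum, moved apart: Insig1 fell (log2 fold change -1.80, SE 0.40, edgeR adjusted p = 0.00943) and Insig2 was the list's only rise (log2 fold change 1.84, SE 0.31, edgeR adjusted p = 0.00133). Nr1h3, encoding LXR-alpha, did not pass (log2 -0.09, edgeR adjusted p = 0.656). The desaturase Fads1 fell (log2 fold change -0.49, SE 0.13, edgeR adjusted p = 0.0213), a call lost without control replicate 5 (edgeR adjusted p = 0.0762; all alternatives 0.000527 to 0.146), and Fads2 (log2 0.36, edgeR adjusted p = 0.181) and Elovl5 (log2 0.38, edgeR adjusted p = 0.54) did not pass. Without ketogenic replicate 5 the list held 23 falls among 28, and the log2 fold change of Elovl5 was -0.11 (edgeR adjusted p = 0.831).

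**Figure D3:**
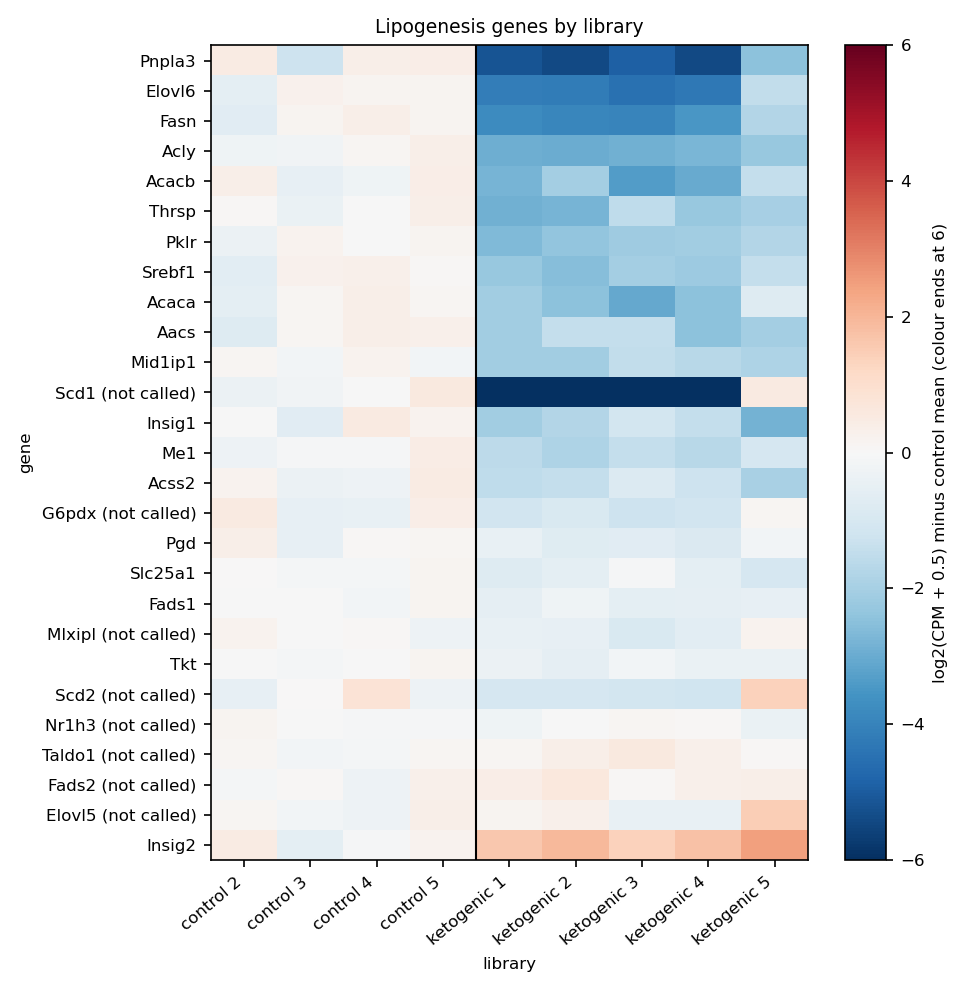
Genes of the lipogenesis list (rows) in each of the 9 libraries (columns), as log2(CPM + 0.5) minus the control mean, blue lower and red higher, with the colour scale ending at 6. Ketogenic replicates 1 to 4 are dark blue for Scd1 and for the top rows, and replicate 5 is paler there, and Scd1 is not below the controls in it.

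In the list of glycolysis, fructose and galactose metabolism 10 of 30 fell and 2 rose. Without control replicate 3, 4 or 5 the falls were 6 and neither rise was called, and without ketogenic replicate 1 or 2 there were 6 falls and 1 rise. Khk, fructokinase (log2 fold change -1.15, SE 0.17, edgeR adjusted p = 0.000458), and Tkfc, triokinase (log2 fold change -1.02, SE 0.13, edgeR adjusted p = 0.000127), both of fructose breakdown, fell. Gpi1, which interconverts glucose and fructose phosphates, fell by a modest amount (log2 fold change -1.0, SE 0.10, edgeR adjusted p = 1.79e-05). The middle of glycolysis did not pass: Tpi1 (log2 -0.22, edgeR adjusted p = 0.314), Gapdh (log2 -0.22, edgeR adjusted p = 0.221), Pgk1 (log2 -0.19, edgeR adjusted p = 0.299) and Eno1 (log2 -0.24, edgeR adjusted p = 0.165). Slc2a4, the insulin-regulated glucose transporter of muscle and fat, fell from a low level (log2 fold change -3.76, SE 0.77, edgeR adjusted p = 0.00729), with 5.42 CPM in replicate 5 against at most 0.766 CPM in the other ketogenic livers and a log2 fold change of -5.43 without it.

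Among genes of gluconeogenesis and glycogen, 3 of 23 rose and 7 fell, beside 7.47% and 4.6% of all genes. The control enzymes Pck1 (log2 fold change 0.48, SE 0.37, edgeR adjusted p = 0.417) and G6pc (log2 -0.13, edgeR adjusted p = 0.766) did not pass. Pcx, pyruvate carboxylase, rose (log2 0.54, edgeR adjusted p = 0.0132), and Fbp1 fell (log2 -0.59, edgeR adjusted p = 0.00412), as did the glucose-6-phosphate carrier Slc37a4 (log2 -0.81, edgeR adjusted p = 0.0106). Pygl, liver glycogen phosphorylase, stood at 795, 807, 829 and 889 CPM in the controls and 351, 418, 464, 459 and 489.7 CPM in the ketogenic livers (log2 fold change -0.93, SE 0.12, edgeR adjusted p = 0.000188), and Ppp1r3b, which targets phosphatase to glycogen, fell (log2 fold change -1.14, SE 0.17, edgeR adjusted p = 0.000418). Got1, cytosolic aspartate aminotransferase, fell (log2 fold change -1.53, SE 0.28, edgeR adjusted p = 0.00228).

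Around pyruvate dehydrogenase and the citric acid cycle, 7 of 32 rose and 4 fell, beside 7.47% and 4.6% of all genes. The rises were 3 without control replicate 3 or 4 or ketogenic replicate 2, 4 without control replicate 5 or ketogenic replicate 4, and 15 on library totals. The falls were 2 without control replicate 3 or 5 or ketogenic replicate 1, 2 or 4. Mpc1, a subunit of the mitochondrial pyruvate carrier (log2 fold change 0.71, SE 0.12, edgeR adjusted p = 0.000911), Idh2, the NADP-linked mitochondrial isocitrate dehydrogenase (log2 fold change 0.90, SE 0.15, edgeR adjusted p = 0.000812), and Suclg2 (log2 0.61, edgeR adjusted p = 0.00143) rose. Pdk1 fell (log2 fold change -0.90, SE 0.13, edgeR adjusted p = 0.000321) and Pdhb, a subunit of pyruvate dehydrogenase, fell (log2 -0.63, edgeR adjusted p = 0.00719). The cycle's own dehydrogenases Ogdh (log2 -0.10, edgeR adjusted p = 0.652), Sdha (log2 0.09, edgeR adjusted p = 0.659) and Mdh2 (log2 0.19, edgeR adjusted p = 0.371) did not pass.

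Several genes of nitrogen disposal fell. Of 17 genes of the urea cycle and ammonia handling, 4 fell and 1 rose. Cps1, which fixes ammonia as carbamoyl phosphate, stood at 4873, 5649, 5864 and 6852 CPM in the controls and 1794, 2156, 2717, 3132 and 2553 CPM in the ketogenic livers (log2 fold change -1.23, SE 0.21, edgeR adjusted p = 0.00142), and no library of one group reached the other. Ass1, argininosuccinate synthetase (log2 fold change -1.09, SE 0.18, edgeR adjusted p = 0.00108), and Gls2, liver glutaminase (log2 fold change -1.10, SE 0.16, edgeR adjusted p = 0.000434), fell, and the ammonia channel Rhbg rose (log2 fold change 1.86, SE 0.32, edgeR adjusted p = 0.00124). Asl also fell (log2 -0.86, edgeR adjusted p = 0.0226), a call lost without control replicate 5 (edgeR adjusted p = 0.0747), ketogenic replicate 1 (0.0539) or 2 (0.0501); all alternatives gave 0.00311 to 0.159. Amino acid breakdown split, with 8 of 57 higher and 9 lower, beside 7.47% and 4.6% of all genes. Bhmt, which remethylates homocysteine with betaine, stood at 1726, 719, 562 and 1271 CPM in the controls and 2491, 3884, 4931, 4450.3 and 2750.4 CPM in the ketogenic livers. Bhmt had a log2 fold change of 1.79 (SE 0.31, edgeR adjusted p = 0.00134). Sds, serine dehydratase, fell (log2 fold change -1.37, SE 0.27, edgeR adjusted p = 0.00397), and so did Haao (log2 -0.87, edgeR adjusted p = 0.00644) and Hgd (log2 -0.67, edgeR adjusted p = 0.00449) of the tryptophan and tyrosine pathways. The mitochondrial Agxt2 (log2 0.83, edgeR adjusted p = 0.00029) and Amt, of the glycine cleavage system (log2 0.80, edgeR adjusted p = 0.0021), rose. Without ketogenic replicate 5, 15 of the 57 rose, and 5 rose without control replicate 3 or 4 or ketogenic replicate 2.

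Cholesterol synthesis did not move as a group in all 9 libraries: 1 of 24 genes rose and 2 fell. Neither fall was called without control replicate 3, 4 or 5 or ketogenic replicate 1, 1 was called without control replicate 2 or ketogenic replicate 4, and 5 were without ketogenic replicate 3. Hmgcs1, which makes HMG-CoA in the cytosol, rose (log2 fold change 1.73, SE 0.33, edgeR adjusted p = 0.0035) with 124, 75.9, 76.9 and 102 CPM in the controls and 336, 409, 424, 289 and 106 CPM in the ketogenic livers; replicate 5 lay within the control range. In replicate 5 all 24 genes were at their lowest among the ketogenic livers, with a list median of -1.65 on the log2 scale relative to the control mean against -0.26, 0.09, 0.37 and 0.06 in replicates 1 to 4. Stard4, a sterol carrier, was among the falls (log2 fold change -0.72, SE 0.23, edgeR adjusted p = 0.0487; 0.0123 to 0.147 over all alternatives), a call lost without control replicate 2, 3, 4 or 5 or ketogenic replicate 1 or 4. Sqle, squalene epoxidase, stood at 105, 52.7, 69.0 and 85.5 CPM in the controls and 73.1, 123, 123, 77.3 and 1.61 CPM in the ketogenic livers. Without that library 5 of 24 rose and 1 fell, beside 7.24% and 5.02% of all genes in that fit.

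In bile acid metabolism 6 of 27 tested genes rose and 3 fell, or 5 without ketogenic replicate 3. Cyp7a1, which sets the pace of bile acid production, did not pass (log2 fold change -0.24, SE 0.49, edgeR adjusted p = 0.783). Cyp8b1, which adds the hydroxyl that defines cholic acid, rose (log2 fold change 1.68, SE 0.35, edgeR adjusted p = 0.00646), with 164 CPM in replicate 5 against 332 to 743 CPM in the rest of the diet. Abcb4, the phospholipid flippase of bile, stood at 124, 202, 166 and 170.1 CPM in the controls and 492, 392, 307, 382 and 343 CPM in the ketogenic livers (log2 fold change 1.21, SE 0.17, edgeR adjusted p = 0.00027), and Abcc3, a basolateral conjugate exporter, rose (log2 fold change 1.89, SE 0.30, edgeR adjusted p = 0.000743). Cyp2c70, which makes mouse muricholic acids, fell (log2 -1.69, edgeR adjusted p = 0.012), and so did Klb, the FGF co-receptor (log2 -0.86, edgeR adjusted p = 0.00349). Of 26 lipoprotein genes 1 rose and 2 fell, or 5 without ketogenic replicate 3: Apoa4 rose (log2 fold change 1.91, SE 0.34, edgeR adjusted p = 0.00171), Tm6sf2, which helps load very-low-density lipoprotein, fell (log2 fold change -1.23, SE 0.19, edgeR adjusted p = 0.000499), and Angptl8, a feeding-induced regulator of lipoprotein lipase, fell (log2 fold change -2.12, SE 0.52, edgeR adjusted p = 0.0184) with a call lost without control replicate 4 (edgeR adjusted p = 0.0589; all alternatives 0.000779 to 0.13). Apob (log2 -0.09, edgeR adjusted p = 0.859) and Mttp (log2 -0.30, edgeR adjusted p = 0.0941) did not pass. Beside the bile acid and lipoprotein counts, 7.47% of all genes rose and 4.6% fell.

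Phospholipid genes rose in 5 of 22 cases and fell in 1; Chkb, a choline kinase (log2 fold change 0.96, SE 0.15, edgeR adjusted p = 0.000663), Chpt1, which completes phosphatidylcholine (log2 fold change 0.90, SE 0.14, edgeR adjusted p = 0.000459), and the phospholipase Pla2g6 (log2 fold change 1.14, SE 0.16, edgeR adjusted p = 0.000278) were among the rises. In the sphingolipid list 6 of 22 rose and 0 fell, but the rises were 1 without control replicate 3, 2 without control replicate 4 or 5 or ketogenic replicate 1, and 3 without ketogenic replicate 2 or 5. Beside the phospholipid and sphingolipid counts, 7.47% of all genes rose and 4.6% fell. Sptlc3, an alternative subunit of the enzyme that starts ceramide synthesis, had 0 counts in the 4 controls together and 288 in the ketogenic livers, at least 63.2-fold higher when the controls are set at 3 counts over the group. The ketogenic libraries ran from 0.0366 CPM in replicate 5 to 5.31 CPM in replicate 2, and its edgeR adjusted p was 0.0309, with 0.0102 to 0.07 when single libraries were left out. The call was lost without control replicate 3, 4 or 5 or ketogenic replicate 1, 2 or 4.

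A part of the redox defence genes rose. Of 28 NRF2 targets, 10 rose and 0 fell, with 6 rises without control replicate 4, 5 without control replicate 5 and 19 on library totals. Nqo1, a quinone reductase (log2 fold change 1.56, SE 0.27, edgeR adjusted p = 0.00155), Srxn1, sulfiredoxin (log2 fold change 1.10, SE 0.21, edgeR adjusted p = 0.0031), Ephx1, microsomal epoxide hydrolase (log2 fold change 1.0, SE 0.16, edgeR adjusted p = 0.000612), and Aox1, aldehyde oxidase (log2 fold change 1.24, SE 0.19, edgeR adjusted p = 0.000488), were among them, and Hmox1, heme oxygenase, did not pass (log2 0.28, edgeR adjusted p = 0.407). Among glutathione S-transferases 5 of 21 rose and 3 fell, with 3 rises without control replicate 3 or 4 or ketogenic replicate 1 and 8 without ketogenic replicate 5; Gsta1 rose from at most 0.509 CPM to 24.7, 5.02, 4.44, 3.58 and 15.2 CPM (log2 fold change 5.42, SE 1.11, edgeR adjusted p = 0.0072), with log2 fold changes of 6.02 without control replicate 2 and 4.84 without ketogenic replicate 1, and Gsta2 rose (log2 2.5, edgeR adjusted p = 0.0015), both of a family of near copies. Mgst3, a membrane relative, rose (log2 1.22, edgeR adjusted p = 0.0032). Gstm6 (log2 -0.92, edgeR adjusted p = 0.0011) and Gstm7 (log2 -0.61, edgeR adjusted p = 0.0041) fell.

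Chaperones and quality-control genes of the endoplasmic reticulum gave few calls: 0 of 35 rose and 4 fell, with a median log2 fold change of -0.26, and 1 fell without control replicate 4 or 5 and 2 without ketogenic replicate 1. Derl2, which threads misfolded proteins out of the reticulum, fell (log2 fold change -0.68, SE 0.12, edgeR adjusted p = 0.00175), and the master chaperone Hspa5 did not pass (log2 -0.27, edgeR adjusted p = 0.515). Side by side, 23 of the 35 fell in the high-fat livers against the same controls, where 5.01% of all genes fell. The test of ketogenic against high-fat with all libraries called 0 of the 35 in either direction, so the diets are not shown to differ there. Of 26 genes of the ATF4 response and its hormones, 3 rose and 1 fell; Gdf15, a stress hormone, stood at 4.07, 1.73, 2.71 and 1.20 CPM in the controls and 12.6, 13.2, 7.51, 7.21 and 23.1 CPM in the ketogenic livers (log2 fold change 2.39, SE 0.50, edgeR adjusted p = 0.00749), and Trib3, a pseudokinase that damps the response, rose (log2 fold change 1.42, SE 0.31, edgeR adjusted p = 0.00672). Asns, a classic ATF4 target, did not pass (log2 -1.23, edgeR adjusted p = 0.205), except without ketogenic replicate 2 (log2 -1.88, edgeR adjusted p = 0.0487; all alternatives 0.0487 to 0.589). Lysosomal genes rose in 6 of 33 cases and fell in 1, with the hexosaminidase subunit Hexa (log2 0.98, edgeR adjusted p = 0.000505) and the sphingolipid activator Psap (log2 0.70, edgeR adjusted p = 0.00308) among the rises. Beside the chaperone, ATF4 and lysosomal counts, 7.47% of all genes rose and 4.6% fell in the ketogenic livers.

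Drug-metabolizing P450s changed in both directions, with 6 of 41 higher and 4 lower, beside 7.47% and 4.6% of all genes. Cyp2b9 stood at 0.170, 0.153, 1.18 and 1.03 CPM in the controls and 220.1, 166, 71.9, 55.0 and 37.3 CPM in the ketogenic livers. Cyp2b9 had a log2 fold change of 7.43 (SE 0.87, edgeR adjusted p = 0.000196). Nr1i3, encoding the receptor CAR that drives Cyp2b genes, rose (log2 fold change 1.44, SE 0.21, edgeR adjusted p = 0.000377) with 160.3, 159, 122 and 135 CPM in the controls and 452, 389.8, 451, 446 and 222 CPM in the ketogenic livers. Cyp2a22 rose (log2 fold change 3.94, SE 0.74, edgeR adjusted p = 0.00417). Cyp2c29 (log2 fold change -1.82, SE 0.29, edgeR adjusted p = 0.000705) and Cyp2c67 (log2 -0.96, edgeR adjusted p = 0.00168) fell, whereas Cyp2c38 rose (log2 1.87, edgeR adjusted p = 0.013). Members of the Cyp2c and Cyp2b clusters are near copies whose shared reads could be split. Abundant P450s such as Cyp2e1 (log2 0.25, edgeR adjusted p = 0.528) and Cyp3a11 (log2 1.41, edgeR adjusted p = 0.259) did not pass. Cyp3a11 stood at 4093 CPM in ketogenic replicate 5 against 262 to 964 CPM in the other ketogenic livers. Without replicate 5 its log2 fold change was 0.09 (edgeR adjusted p = 0.934).

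Some of the P450s that rose are higher in female than in male mouse liver, and lists of sex-biased genes were examined in these males. Among 33 female-biased genes tested there were 14 rises and 2 falls (median 1.32), and of 37 male-biased genes 0 rose and 6 fell (median -0.51). The male-biased falls were 3 without control replicate 3 or 4 or ketogenic replicate 1. The female-biased falls were 1 without control replicate 3 or 5 or ketogenic replicate 1 or 2, and 4 without ketogenic replicate 5. Several rises, Cyp4a14 and the Acot genes among them, also belong to the PPAR-alpha and oxidation groups. Rtn4, a membrane-shaping protein, stood at 46.3, 47.4, 40.1 and 48.7 CPM in the controls and 137, 114, 98.5, 87.2 and 133 CPM in the ketogenic livers. Rtn4 had a log2 fold change of 1.32 (SE 0.16, edgeR adjusted p = 9.67e-05). Moxd1, a monooxygenase relative, had 2951 counts over the 4 controls and 4 over the 5 ketogenic livers (edgeR adjusted p = 0.00127), with controls at 68.3, 3.67, 83.2 and 2.68 CPM. C9 (log2 -0.81, edgeR adjusted p = 0.00687) and Lifr (log2 -0.91, edgeR adjusted p = 0.00978), the leukaemia inhibitory factor receptor, fell. Per-library medians of the male-biased list were -1.02, -0.35, -0.08, 0.03 and -1.70 in ketogenic replicates 1 to 5 on the log2 scale relative to the control mean, so replicates 1 and 5 were the lowest and replicates 3 and 4 lay near the controls. Those of the female-biased list were 1.11, 0.965, 0.61, 0.01 and 1.54, with replicate 4 near the controls. In the high-fat livers 17 female-biased genes rose and 1 fell (median 1.48), and 0 male-biased genes rose and 8 fell (median -0.98). Stat5a, a mediator of growth hormone signals, rose (log2 fold change 1.18, SE 0.17, edgeR adjusted p = 0.000323), and Igf1 did not pass (log2 -0.38, edgeR adjusted p = 0.077; it passed by DESeq2, adjusted p = 0.0255, and without ketogenic replicate 3, edgeR adjusted p = 0.0311, in a range of 0.0255 to 0.194).

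In insulin and leptin signaling 7 of 22 fell and 1 rose. Srebf1 and Ppp1r3b, among the falls, were described above. Lepr, the leptin receptor, stood at 11.3, 26.8, 16.3 and 24.4 CPM in the controls and 2.42, 2.66, 1.17, 1.24 and 8.64 CPM in the ketogenic livers (log2 fold change -2.59, SE 0.48, edgeR adjusted p = 0.0031), with a log2 fold change of -3.40 without ketogenic replicate 5, its highest ketogenic library. Akt1 fell slightly (log2 -0.52, edgeR adjusted p = 0.00524), and the insulin receptor Insr (edgeR adjusted p = 0.99) and its substrate Irs2 (log2 1.02, edgeR adjusted p = 0.155) did not pass. Irs2 rose without control replicate 3 (log2 1.6, edgeR adjusted p = 0.0283; all alternatives 0.0283 to 0.478). Of 27 hepatokines 5 rose and 5 fell, with Inhbe rising (log2 1.11, edgeR adjusted p = 0.00712). The falls were 3 without control replicate 3 or ketogenic replicate 1, 2 without control replicate 4 and 8 without ketogenic replicate 3. Of 19 clock genes 1 fell, Bhlhe40 (log2 fold change -0.71, SE 0.11, edgeR adjusted p = 0.000802), beside 4.6% of all genes, and the hour of sacrifice is not in the labels. Of 21 iron genes tested 1 rose and 1 fell, beside 7.47% and 4.6% of all genes. The fall, Hamp2, a hepcidin copy with values of 49.3, 51.6, 31.8 and 115 CPM in controls and 1.78, 1.45, 1.48, 1.38 and 21.5 CPM in ketogenic livers (log2 fold change -3.45, SE 0.88, edgeR adjusted p = 0.0246), lost its call without control replicate 5 or ketogenic replicate 1 or 2 (edgeR adjusted p 8.74e-05 to 0.0711 over the leave-one-out fits) and had a log2 fold change of -5.35 without ketogenic replicate 5.

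Of 41 complement and coagulation genes 9 fell and 2 rose, beside 4.6% and 7.47% of all genes. The falls were 4 without control replicate 3 or 4 or ketogenic replicate 1, and 5 without control replicate 5 or ketogenic replicate 5. Mbl2, a mannose-binding lectin, stood at 434, 311, 318 and 385 CPM in the controls and 96.1, 150.1, 189, 139 and 166 CPM in the ketogenic livers. Mbl2 had a log2 fold change of -1.29 (SE 0.18, edgeR adjusted p = 0.000231). F7, clotting factor VII (log2 -0.95, edgeR adjusted p = 0.00571), and Kng1, kininogen (log2 -0.68, edgeR adjusted p = 0.00789), fell. Acute phase genes gave 6 rises and 2 falls in 29, with Il1rn, the interleukin-1 receptor antagonist, among the rises (log2 fold change 3.31, SE 0.59, edgeR adjusted p = 0.00212). There was 1 rise without control replicate 2, 3 or 5 or ketogenic replicate 5. Of the falls 1 was left without control replicate 2, 3 or 5 or ketogenic replicate 1 or 4, and neither was called without control replicate 4. Saa1 did not pass (log2 1.99, edgeR adjusted p = 0.0975), except by DESeq2 (adjusted p = 0.0306; all alternatives 0.0306 to 0.216).

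Macrophage markers of lipid-loaded livers rose in part and were highest in ketogenic replicate 5. Of 18 genes that mark recruited or lipid-laden macrophages 8 rose and 1, Fabp5, fell, with 5 rises without control replicate 2 or 3, 4 without control replicate 4 or 5, and 2 by limma-voom. The rises included Plin2, the droplet coat gene described above. Gpnmb, a lysosomal glycoprotein of such cells, stood at 2.32, 0.814, 1.13 and 0.742 CPM in the controls and 40.3, 14.8, 10.7, 6.71 and 119.8 CPM in the ketogenic livers (log2 fold change 4.95, SE 0.92, edgeR adjusted p = 0.00438), and Mmp12, macrophage elastase, stood at 1.02, 0.662, 0.461 and 0.400 CPM in the controls and 22.8, 11.3, 3.68, 4.18 and 56.0 CPM in the ketogenic livers. Mmp12 had a log2 fold change of 4.94 (SE 0.90, edgeR adjusted p = 0.00354). Both were above all controls in each ketogenic liver; without replicate 5 the log2 fold changes were 3.84 and 4.02. Trem2, the lipid receptor that defines this state, rose (log2 fold change 2.66, SE 0.71, edgeR adjusted p = 0.0262), with log2 1.59 and edgeR adjusted p = 0.0238 without replicate 5, and lost its call without control replicate 3 (0.079), 4 (0.0802) or 5 (0.0725), with 0.00158 to 0.128 over all alternatives. Per-library medians of these markers were 1.38, 0.94, 0.57, 0.19 and 2.87 in replicates 1 to 5. Among 12 resident Kupffer cell markers 2 fell, Cd163 (log2 -2.53, edgeR adjusted p = 0.0265) and Timd4 (log2 -1.71, edgeR adjusted p = 0.0454), and Clec4f did not pass (log2 -0.30, edgeR adjusted p = 0.35). The Cd163 call was lost without control replicate 4 or 5 (edgeR adjusted p up to 0.0715), and the Timd4 call in every leave-one-out fit except that without ketogenic replicate 5 (up to 0.0953).

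Of 30 cytokine and chemokine genes 3 rose, or 5 without ketogenic replicate 4, beside 7.47% of all genes. Replicate 5 was the highest ketogenic library for 25 of the 30, and for 4798 of all 14623 names tested. Ccl2, the monocyte attractant, stood at 0.170, 0.305, 0.205 and 0.0571 CPM in the controls and 1.57, 1.64, 1.07, 0.781 and 5.89 CPM in the ketogenic livers (log2 fold change 3.52, SE 0.68, edgeR adjusted p = 0.0033; log2 2.7 without ketogenic replicate 5), and Cxcl10 rose (log2 fold change 2.10, SE 0.40, edgeR adjusted p = 0.00272). Of 39 interferon-response genes 8 rose, beside the same 7.47% of all genes. The count was 5, 3, 2 and 4 without control replicates 2, 3, 4 and 5, 16 without ketogenic replicate 4, and 2 with neither control replicate 2 nor ketogenic replicate 5. Ifi44 was among the rises (log2 fold change 1.27, SE 0.24, edgeR adjusted p = 0.0031). By edgeR 0 of 9 MHC class II genes passed (1 at an unadjusted p under 0.05). Cd74, the invariant chain, stood at 101, 75.6, 81.0 and 124 CPM in the controls and 117, 77.4, 95.9, 67.0 and 518 CPM in the ketogenic livers (log2 0.88, edgeR adjusted p = 0.297), and replicate 5 alone exceeded every control. All 10 tested T and NK cell markers and all 9 B cell markers were highest in replicate 5 among the ketogenic livers. The part of these cells in the results that rest on replicate 5 was not tested.

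Part of the matrix genes rose, in numbers that depended on single libraries. Of 44 genes of fibrosis and extracellular matrix 21 rose and 0 fell (median 0.89), and 12 rose without ketogenic replicate 5, 12 without ketogenic replicate 1, and 13, 11, 5 and 7 without control replicates 2, 3, 4 and 5. Loxl2, a collagen cross-linking oxidase (log2 fold change 1.63, SE 0.30, edgeR adjusted p = 0.00228), Ccn1, a matricellular protein (log2 fold change 1.17, SE 0.20, edgeR adjusted p = 0.00116), Lum, lumican (log2 1.28, edgeR adjusted p = 0.0143), and Tagln, a contractile-cell protein (log2 0.79, edgeR adjusted p = 0.00618), rose in each leave-one-out fit. Col1a1, the main fibrillar collagen, stood at 21.7, 8.65, 10.3 and 3.88 CPM in the controls and 47.1, 48.1, 17.7, 17.9 and 94.4 CPM in the ketogenic livers (log2 fold change 2.02, SE 0.55, edgeR adjusted p = 0.0299) and lost its call without control replicate 3, 4 or 5 or ketogenic replicate 1, 2 or 5 (edgeR adjusted p up to 0.0873). Stellate cell and fibroblast markers rose in 1 of 13 cases, beside 7.47% of all genes. That call was lost without control replicate 2, 3, 4 or 5 or ketogenic replicate 5. The part of these cells in the matrix results was not tested. In the hepatocyte injury list 8 of 31 rose and 3 fell, with 4 to 11 rises over the leave-one-out fits. The keratins Krt8 (log2 fold change 1.21, SE 0.18, edgeR adjusted p = 0.000388) and Krt18 (log2 0.93, edgeR adjusted p = 0.00308) were among the rises, and Tff3, described below, among the falls. In the cell cycle list 8 of 33 rose and 1 fell. The rises were 3 without control replicate 3 or 5, 4 without control replicate 4 and 5 without ketogenic replicate 1 or 5, and they included cyclin D1 (Ccnd1, log2 fold change 1.23, SE 0.23, edgeR adjusted p = 0.00246) and the replication helicase subunit Mcm5 (log2 1.86, edgeR adjusted p = 0.00273).

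**Figure D4:**
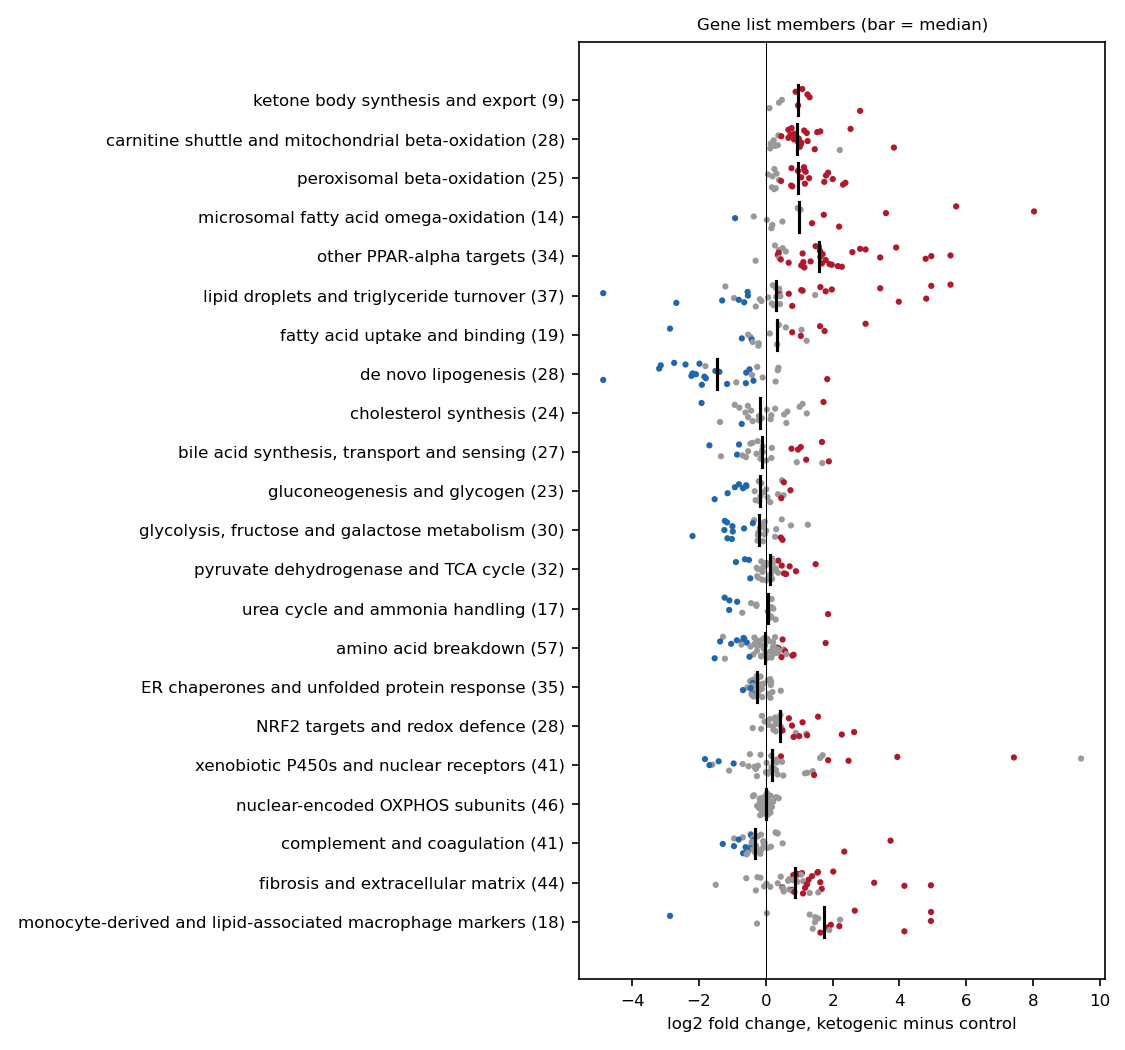
Log2 fold change of every tested member (points) of 22 gene lists (rows, number tested in brackets), red for rises and blue for falls at an edgeR adjusted p under 0.05, grey for the rest, with the median as a bar. Ketone, oxidation and PPAR-alpha lists lie right of 0, lipogenesis lies left of it, and OXPHOS subunits lie close to 0.

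Several of the largest changes lay outside these lists or are not textbook fuel genes. Ubd, encoding the ubiquitin-like protein FAT10, stood at 0.679, 0.255, 0.154 and 0.343 CPM in the controls and 24, 16.4, 7.87, 5.93 and 31.2 CPM in the ketogenic livers. Ubd had a log2 fold change of 5.58 (SE 0.68, edgeR adjusted p = 0.000171). Themis, known from T cell development, stood at 0, 0.407, 0.563 and 0.971 CPM in the controls and 28.5, 13.4, 14.3, 10.7 and 12.3 CPM in the ketogenic livers (log2 fold change 5.01, SE 0.60, edgeR adjusted p = 0.000165), while by edgeR 0 of 10 T and NK cell markers passed (1 at an unadjusted p under 0.05). Mtnr1a, a melatonin receptor, stood at 0.679, 0.356, 0.256 and 0.571 CPM in the controls and 7.81, 7.92, 5.26, 5.51 and 6.96 CPM in the ketogenic livers. Mtnr1a had a log2 fold change of 3.84 (SE 0.28, edgeR adjusted p = 6.02e-06). Clstn3, calsyntenin 3 (log2 fold change 3.08, SE 0.25, edgeR adjusted p = 6.02e-06), and Osbpl3, an oxysterol-binding protein (log2 fold change 3.40, SE 0.29, edgeR adjusted p = 9.72e-06), rose with no overlap between groups. None of these 5 calls was lost when any single library was left out.

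Among the falls, Tff3, a mucosal trefoil peptide, stood at 60.0, 13.7, 24 and 8.51 CPM in the controls and 0.0424, 0.338, 0.715, 0.413 and 0.732 CPM in the ketogenic livers (log2 fold change -5.87, SE 0.73, edgeR adjusted p = 0.000219); control replicate 2, which held the most acinar transcripts of these libraries, was the highest, and without it the log2 fold change was -5.09. Chrna4, a nicotinic acetylcholine receptor subunit, stood at 18.4, 5.75, 8.76 and 12.7 CPM in the controls and 0.170, 0.0966, 0, 0.138 and 0.622 CPM in the ketogenic livers (log2 fold change -5.64, SE 0.66, edgeR adjusted p = 0.000108; -6.70 without ketogenic replicate 5). Adgrf1, an adhesion receptor, stood at 10.2, 12.6, 8.04 and 7.94 CPM in the controls and 0.127, 0.290, 0.562, 0.368 and 0.110 CPM in the ketogenic livers (log2 fold change -5.08, SE 0.51, edgeR adjusted p = 2.55e-05), and Grm8, a metabotropic glutamate receptor, fell (log2 fold change -3.68, SE 0.42, edgeR adjusted p = 6e-05). Chrna4 and Adgrf1 were above 5 CPM in each control and below 1 CPM in every ketogenic liver. Enpep, aminopeptidase A, fell (log2 fold change -1.83, SE 0.17, edgeR adjusted p = 1.75e-05) with 129, 189, 217 and 214 CPM in the controls and 50.2, 49.6, 46.5, 43.2 and 73.5 CPM in the ketogenic livers.

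Against the same controls 6.95% of genes rose in the high-fat livers and 5.01% fell. There 6 of 9 ketone genes and 28 of 34 other PPAR-alpha targets rose. Of the oxidation genes 20 of 28 mitochondrial and 18 of 25 peroxisomal ones rose. In the ketogenic livers these rises were 6, 28, 21 and 17, and 0 members of these lists fell on either diet. Ketogenic against high-fat with all libraries called 0 of their members. Of 28 lipogenesis genes 7 fell and 4 rose, against 19 and 1 in the ketogenic livers. The high-fat livers were used to ask where the ketogenic change differed from that of another fat-rich diet. Both fat-rich diets were compared with the same controls, and the test of the difference is ketogenic against high-fat in the same fit. With all libraries 9 of 14627 genes passed (0.0615%, or 0.00684% higher and 0.0547% lower in ketogenic; 1273 at an unadjusted p under 0.05; DESeq2 called 173 and limma-voom 17), and 7 of those also differed from controls. Mbl2 was lower in the ketogenic livers than in the high-fat ones, which stood at 337, 274, 235, 304 and 337 CPM (log2 fold change -1.01, SE 0.17, edgeR adjusted p = 0.0322). Chrna4 (high-fat 4.68, 2.31, 7.10, 1.62 and 2.09 CPM; log2 -3.96, edgeR adjusted p = 0.0322), Lrtm1, a leucine-rich repeat membrane protein (log2 -2.82, adjusted p = 0.0224), Cyb5r3, cytochrome b5 reductase, which feeds electrons to desaturases (log2 -0.76, adjusted p = 0.0223), and Fads1 (log2 -0.90, adjusted p = 0.0149) were also lower than on the high-fat diet. Cyp17a1, a steroid hydroxylase, differed from high-fat (log2 -3.17, edgeR adjusted p = 0.00201). Against controls its log2 fold change was -1.03 (edgeR adjusted p = 0.0592), and it passed without ketogenic replicate 5 (log2 -1.38, edgeR adjusted p = 0.00545), by DESeq2 and by limma-voom, in a range of 0.00545 to 0.239 over all alternatives. The rest were 1810008I18Rik and Prob1, lower, and Gm15638, higher than on the high-fat diet.

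This count depended on single libraries, ketogenic replicate 5 above all. Without it, a fit added after the data were seen, 135 genes were higher (0.938%) and 180 lower (1.25%) than on the high-fat diet, out of 14400 tested. In that fit 14 of 28 lipogenesis genes were lower than on the high-fat diet, among them Scd1 (edgeR, log2 -8.90, adjusted p = 5.32e-05, against -1.38 and 0.917 with all libraries), Elovl6 (log2 -2.62, adjusted p = 0.000168, against -1.5 and 0.438 with all libraries), Fasn (log2 -2.46, adjusted p = 0.00689, against -1.77 and 0.236 with all libraries) and Acacb (log2 -2.20, adjusted p = 0.00215, against -1.84 and 0.0636 with all libraries). High-fat livers had Scd1 at 7032, 17313, 11438, 8229 and 10343 CPM, with 3 of the 5 below the lowest control, and Elovl6 at 355, 361, 268, 184 and 140.5 CPM, between the controls and ketogenic replicates 1 to 4. In the same fit 14 of 35 endoplasmic reticulum genes were higher than on the high-fat diet, against 0 with all libraries. Among them were Hspa5 (log2 1.01, edgeR adjusted p = 0.0136, against 0.85 and 0.235 with all libraries) and Hyou1 (log2 1.35, edgeR adjusted p = 0.00215, against 1.15 and 0.133 with all libraries). Of the oxidation genes 2 of 27 mitochondrial ones tested and 1 of 25 peroxisomal ones were higher, Acadm among them (log2 0.59, adjusted p = 0.0152, against 0.45 and 0.351 with all libraries), and of the ketone genes 2 of 9, Bdh1 (log2 0.60, adjusted p = 0.0136, against 0.45 and 0.398 with all libraries) and Acat1 (log2 0.54, adjusted p = 0.0266, against 0.42 and 0.363 with all libraries). A gene that passed in one fit and not in another is not shown to differ between fits.

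Across groups of genes, ketogenic replicate 5 differed from the other ketogenic livers in size for some lists and in direction for others. Its median for mitochondrial oxidation was 0.43 against 0.93, 1.14, 0.98 and 0.93 in replicates 1 to 4, in log2 units relative to the control mean, and it was the lowest ketogenic liver for 17 of the 21 oxidation genes that rose. Its lipogenesis median was -0.97 against -1.56, -1.54, -1.17 and -1.33, and it was the highest ketogenic liver for 11 of 19 lipogenesis genes that fell. Its matrix median was 1.5 against 0.82, 0.90, 0.14 and 0.22, and for MHC class II it was 2.46 against 0.36, -0.26, 0.23 and -0.32. Of 1092 genes that rose (each name counted once), it was the lowest ketogenic library in 348. Over all 14623 names tested it was the lowest in 3899 and the highest in 4798.

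**Figure D5:**
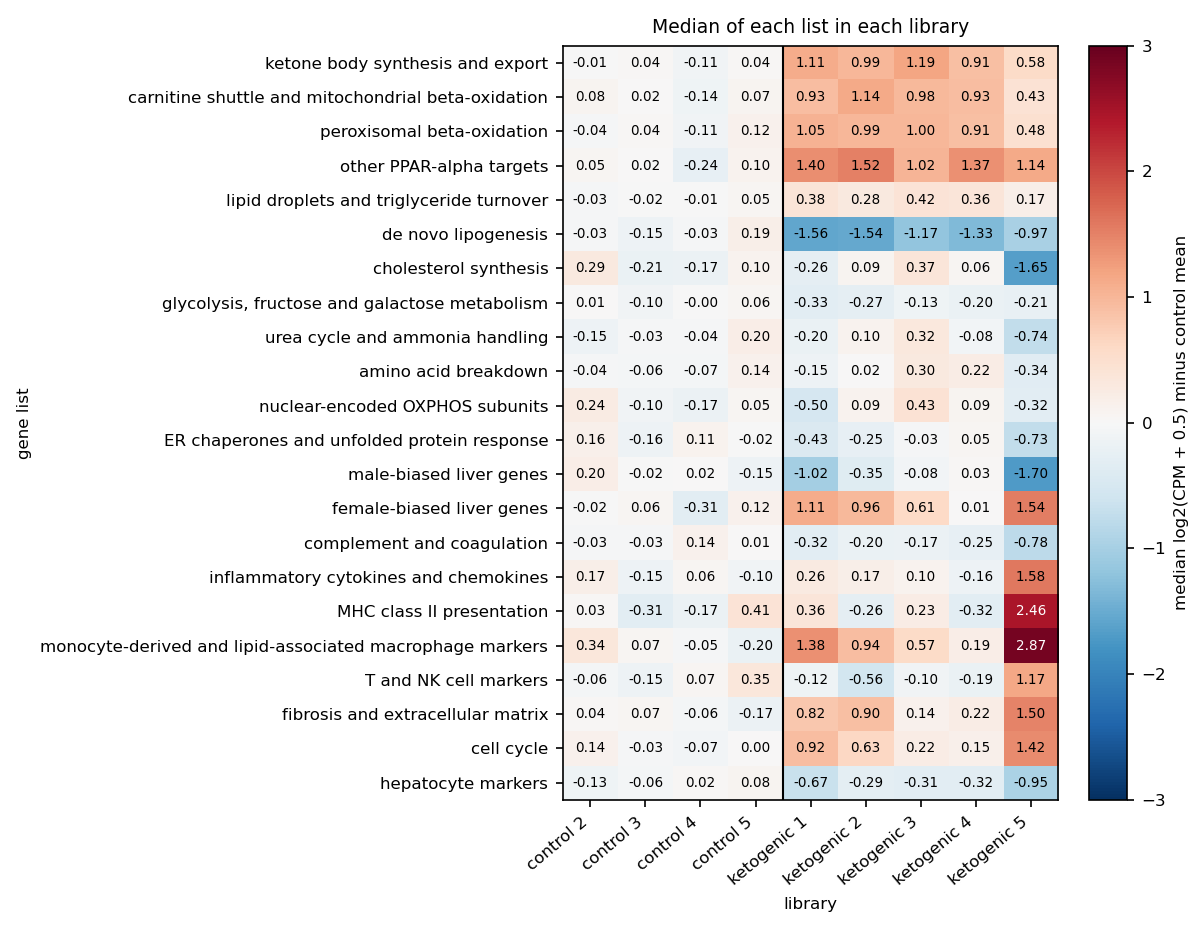
Median over the tested members of each gene list (rows) of log2(CPM + 0.5) minus the control mean, in 4 control and 5 ketogenic libraries (columns), printed in each cell and coloured red for higher and blue for lower. Ketogenic replicate 5 (last column) has the highest medians of the 9 libraries for MHC class II, macrophage and matrix genes and the lowest for cholesterol synthesis.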

How the data were processed

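Liver poly(A) RNA was made into libraries with a directional kit, per the labels' protocols. Reads were trimmed with cutadapt 1.16, aligned with STAR 2.7.9a to GRCm39 and counted per gene with featureCounts 1.6, and DESeq2 1.36.0 is listed as well, per the submitters' processing notes. The authors deposited 1 table of raw counts for 56980 gene identifiers, of which 52073 carry a symbol. How multi-mapping reads were treated and the strand setting of the counting are not stated in the labels or notes, so near-identical paralogs and overlapping or antisense genes are uncertain.

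From the counts, edgeR 4.0.16 (R 4.3.3) fitted 14 libraries of 3 diets in 1 model with TMM factors, after filterByExpr with a minimum count of 10 and a minimum total of 15, which left 14627 genes and 11 residual degrees of freedom. Ketogenic minus control was tested with the robust quasi-likelihood test and Benjamini-Hochberg adjustment over all genes at 0.05, and ketogenic minus high-fat likewise. Standard errors were taken from the fold change and its F statistic. The code was tested on simulated counts. Library totals of 18429827 to 22509625 in the 9 ketogenic and control libraries set the counting precision, and intervals cover counting error only. Alternatives were DESeq2 1.42.0, limma-voom (limma 3.58.1), other scalings, filters and subsets of libraries, and each library left out in turn. Leaving out control 2 and ketogenic 5 together, and all leave-one-out fits against high-fat, were added after seeing the data.

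The members and gene lists were chosen with earlier results of these data known. Genes were named by a rule: the 15 largest rises and falls, the 10 smallest adjusted p and the 10 most abundant called genes in each direction, up to 4 members of each list, those also differing from high-fat, and a set of fuel-metabolism genes. The rule was written with a limit of 90, which its parts exceeded: it gave 222 genes; of the 240 printed, 145 follow it and 95, mostly further members of the lists, were chosen after their values were seen. Promoter sequences are from RefSeq (GRCm38.p6), matched by symbol, and no coordinate was moved between builds. A few list members enter the counts without being reported individually.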

Additional observations from a re-analysis of the deposited data

Results flagged for a closer look

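Among 240 named genes, 49 values in 480 groups of 4 or 5 libraries lay far from the rest of their group by Dixon's criterion. Its chance rate of about 1 in 20 groups assumes independent values with a normal spread. Here it was applied to CPM without logs, in genes partly chosen after their values were seen. The count is therefore a description, and no excess over chance is drawn from it. Ketogenic replicate 5 held 23 of them: Acaca at 215 CPM, Acadm at 365 CPM, Ccl2 at 5.89 CPM, Cd74 at 518 CPM, Chrna4 at 0.622 CPM, Cyp3a11 at 4093 CPM, Elovl5 at 663 CPM, Elovl6 at 294 CPM, Enpep at 73.5 CPM, Etfdh at 240.5 CPM, Fasn at 1144 CPM, Gpi1 at 226 CPM, Hadha at 332 CPM, Hamp2 at 21.5 CPM, Hsd17b4 at 546 CPM, Lepr at 8.64 CPM, Nr1i3 at 222 CPM, Oxct1 at 18.6 CPM, Pnpla3 at 3.30 CPM, Scd1 at 20821 CPM, Scd2 at 32.5 CPM, Slc2a4 at 5.42 CPM and Trem2 at 24.9 CPM. Ketogenic replicate 1 stood apart for Abcc3 at 457 CPM, Aldh3a2 at 1187 CPM, Pla2g6 at 112 CPM, Srxn1 at 86.7 CPM and Themis at 28.5 CPM. Ketogenic replicate 2 stood apart for Slc27a1 at 26.8 CPM. Ketogenic replicate 3 stood apart for Saa1 at 835 CPM and mt-Nd4l at 3.06 CPM. Control replicate 2 stood apart for Acsl1 at 979.8 CPM, Cyp2c70 at 1336 CPM, Elovl6 at 550.5 CPM, Nr1h3 at 118 CPM, Ppara at 57.1 CPM and S100a9 at 47.2 CPM. Control replicate 3 stood apart for Ccn1 at 3.41 CPM, Crot at 195 CPM, Irs2 at 15.4 CPM, Pnpla3 at 8.40 CPM and Slc27a1 at 8.96 CPM. Control replicate 4 stood apart for Decr1 at 105 CPM, Fgb at 5057 CPM and Timd4 at 5.63 CPM. Control replicate 5 stood apart for 1810008I18Rik at 121 CPM, Agxt2 at 166 CPM, Got1 at 444 CPM and Plin3 at 43.5 CPM.

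The ketogenic change differed from the high-fat change, by edgeR's test of ketogenic against high-fat, for 9 genes, given here as log2 fold changes: 1810008I18Rik (-1.09), Chrna4 (-3.96), Cyb5r3 (-0.76), Cyp17a1 (-3.17), Fads1 (-0.90), Gm15638 (1.10), Lrtm1 (-2.82), Mbl2 (-1.01) and Prob1 (-0.63).

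Control replicate 1, left out of the comparisons except in 1 alternative, held pancreatic acinar transcripts at 2.02% of its counts (exact 95% interval 2.017 to 2.029%), against 0.213% in control replicate 2 and at most 0.0918% in the other libraries.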

How the results depend on the processing

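Of 184 named genes called against control, 0 changed sign under any alternative, and of 56 not called, 16 did. Of those called, 170 stayed called in each leave-one-out fit and 127 under all 22 alternatives; restricting to libraries whose number in the count table is above 10, which leaves fewer samples, ended 53 calls. The 1093 rises became 1826 on library totals and 478 in libraries numbered above 10, and 658 to 1295 with single libraries left out. The 673 falls became 1056 by DESeq2, 368 on library totals and 317 in libraries numbered above 10, and 398 to 906 with single libraries left out. The cause was not tested. The difference from high-fat, 9 genes, became 173 by DESeq2, 17 by limma-voom, 15 on library totals, 26 with no low-count filter, 0 in libraries numbered above 10 (663 at an unadjusted p under 0.05), 396 with neither control replicate 2 nor ketogenic replicate 5, and 1 to 315 with single libraries left out.

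In libraries numbered above 10, 2 droplet genes and 11 lipogenesis genes fell, against 7 and 19. The 21 matrix genes that rose became 10 by limma-voom, 13 with neither control 2 nor ketogenic 5, 8 with no low-count filter, 8 with only control and ketogenic libraries, 4 in libraries numbered above 10, and 5 to 24 with single libraries left out. With the replicate number as a block, 795 genes rose and 502 fell, 10 matrix genes rose and 15 genes differed from high-fat. Same-numbered libraries correlated at 0.418, -0.00036, 0.0884 and -0.0393 for numbers 2 to 5, and only number 2 correlated best with its own number. So few correlations cannot decide whether the numbers pair the samples. Of uncalled genes, Eno1, Mttp and Vldlr passed by DESeq2, Mttp also with control replicate 1, and Slc16a1 with the block. Depth limits low genes: 7.11% of those under 1 CPM were called.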
